A study of Mus musculus with 8 samples.

Results

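A set of 10 genes of the epithelial-mesenchymal transition was followed in TEC100.4, a permanent mouse cell line from the epithelium of the thymic cortex: the transcription factor genes Snai1, Snai2, Zeb1, Zeb2, Twist1, Twist2 and Prrx1, and the marker genes Vim, Acta2 and Tagln. The list was drawn up by the genes' known roles as regulators or markers, with earlier results of these data already known. All 10 were among the 19023 genes tested, and 16 probes carried their names, of which 15 were bright enough to be tested. One derivative of the line carried a mutant δ isoform of TFII-I and the other a mutant β isoform, each switched on by doxycycline; TFII-I is a transcription factor and the product of Gtf2i. RNA was taken after 24 h with or without doxycycline and hybridised to one-colour arrays, which gave 4 groups of 2 arrays: the δ line with doxycycline, the δ line without, the β line with doxycycline and the β line without. The titles of the untreated samples name the mutant line, while their genotype label names the wild type protein. Since no treated line lacking a mutant was analysed here, effects of the drug and of the protein it induces cannot be told apart, and the sources do not say whether a line is 1 clone. The labels do not say whether the 2 arrays of a group were grown as separate cultures, and the spread behind the p-values may therefore be technical.

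In an epithelial-mesenchymal transition, epithelial cells give up their junctions and polarity and take on the shape, motility and cytoskeleton of mesenchymal cells. Transcription factors of the Snail, Zeb and Twist families drive the change, in large part by binding E-boxes in the promoters of epithelial genes such as the E-cadherin gene Cdh1 and recruiting corepressors there. Vimentin, smooth muscle actin and transgelin are among the cytoskeletal proteins whose rise is used to recognise it. The thymic epithelium that supports T cell development is normally keratin-rich.

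All 8 arrays lay on 1 slide, where one row held every treated array and the other every untreated array, and slide row cannot be told apart from treatment. The δ arrays lay in columns 3 and 4 and the β arrays in columns 1 and 2, so slide column cannot be told apart from the line either. From 43345 to 45080 probes were well above background on a treated array and from 39512 to 40698 on an untreated one. Having only 2 arrays in a group limits the precision. The untreated δ array called replicate 1 stood apart: in 78 of its 1008 tiles of 8 by 8 spots the median deviated by over 0.3 on the log2 scale from the other arrays, against 0 to 7 tiles on the others. Of the probes of the 10 genes, that of Snai1 lay in such a tile on at least 1 array, not necessarily this one. Gtf2i itself, by its brightest probe A_55_P2073467, read 5.28 and 5.26 in the treated δ line, 5.28 and 5.07 in the untreated δ line, 4.58 and 4.65 in the treated β line and 4.39 and 4.63 in the untreated β line. These are log2 levels, the log2 intensity minus the array's 75th percentile, and all levels below are given on this scale with replicate 1 before replicate 2. The difference with doxycycline was 0.09 in the δ line (limma adjusted p = 0.763 over all probes) and 0.11 in the β line (adjusted p = 0.769). This probe was higher in the δ line by 0.65 with doxycycline (adjusted p = 0.0382) and 0.67 without (adjusted p = 0.0362), and A_52_P442585, another probe of Gtf2i, by 0.51 and 0.60 (adjusted p = 0.0399 and 0.0235). The remaining probe, A_55_P2040907, read -1.81 and -1.53 in the treated δ line and -1.68 and -1.93 in the untreated δ line, against -1.05 and -1.02 in the treated β line and -2.13 and -2.56 in the untreated β line. In the β line its treated arrays lay above its untreated ones, by 1.31 ± 0.19 (SE, limma adjusted p = 0.0931), while the difference in the δ line was 0.14 (adjusted p = 0.756). By this probe the δ line differed from the β line by -0.63 with doxycycline and 0.54 without (adjusted p = 0.101 and 0.156), and none of its differences passed. The stretch of Gtf2i that each probe matches was not examined here, and it may or may not be present in the mutant.

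By their brightest probes the δ and β lines differed in several of the 10 genes, and doxycycline changed none of them past the threshold. With doxycycline, Acta2, Zeb1, Tagln and Twist1 were higher in the δ line than in the β line, and without doxycycline Acta2, Zeb1 and Tagln were. Of all genes, 9.83% were higher past the threshold with doxycycline and 7.84% without. By A_51_P450957, a probe almost as bright, Acta2 did not pass at either treatment (limma adjusted p = 0.418 and 0.146 over all probes). The calls of Twist1 and Tagln were lost in several fits that left out an array. No member was lower in the δ line past the threshold. Within a line, Snai2, Acta2 and Tagln read higher and Snai1 read lower on both treated arrays than on both untreated arrays, in the δ line and in the β line alike, but 0 of the 10 passed the limma test after adjustment over all genes. Both treated arrays lay above in 30.7% of all genes in the δ line and 26.2% in the β line. They lay below in 27.4% and 20.7%. Vim, the most widely used mesenchymal marker, differed by at most 0.199 between the means of any pair of groups.

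**Figure D1:**
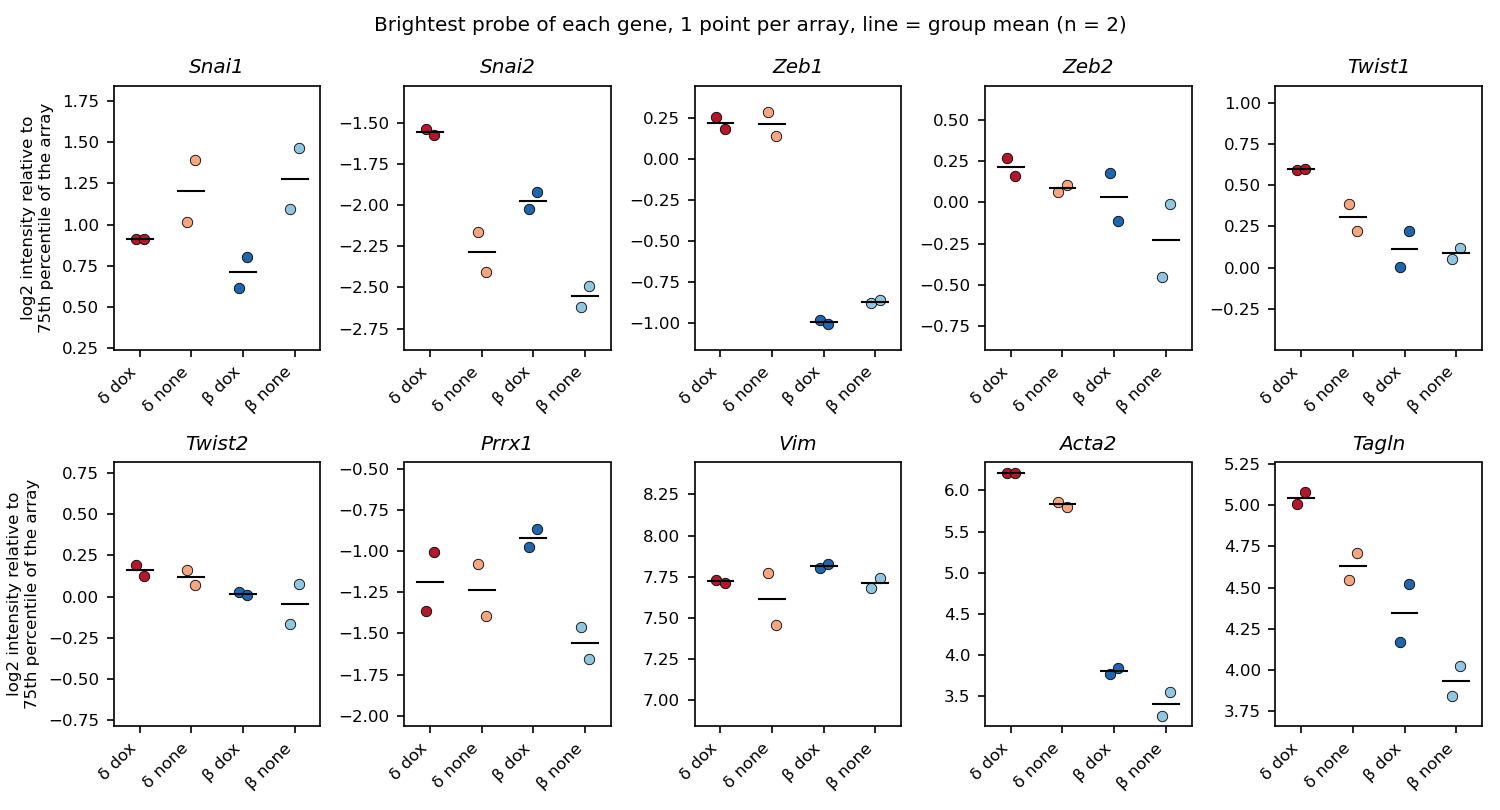
Log2 levels of the 10 genes relative to the array's 75th percentile, by their brightest probe, with 1 point per array and a line at the group mean, on an axis of its own for each gene. Acta2 and Zeb1 separate the 2 δ groups from the 2 β groups, while Snai2 lies higher and Snai1 lower on the treated arrays of both lines.

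Snai1 encodes Snail, a zinc finger repressor of Cdh1 that is induced early in the transition. Of the 7 member genes whose RefSeq promoter window was used here, Snai1 alone held CACCTG, on either strand. This is the E-box to which Snail and Zeb proteins bind. A window runs from 250 bases before to 50 bases after the transcription start, and 20.2% of 32851 such windows of the mouse hold this motif. The window lies at chr2:167537945-167538244 on the plus strand of GRCm38.p6, with the E-box in capitals, 126 bases before the start.
Snai1 promoter: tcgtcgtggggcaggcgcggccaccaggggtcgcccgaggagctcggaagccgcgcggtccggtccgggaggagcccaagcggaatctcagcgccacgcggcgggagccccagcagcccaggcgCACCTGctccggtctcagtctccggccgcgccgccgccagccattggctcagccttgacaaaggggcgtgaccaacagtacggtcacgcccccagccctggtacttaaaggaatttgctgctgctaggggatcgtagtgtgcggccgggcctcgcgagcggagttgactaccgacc
Snai1 read 0.91 and 0.91 in the treated δ line, 1.01 and 1.39 in the untreated δ line, 0.62 and 0.80 in the treated β line and 1.09 and 1.46 in the untreated β line. Both treated arrays of each line lay below both untreated ones. The log2 difference with doxycycline was -0.57 ± 0.18 in the β line (SE, limma adjusted p = 0.182) and -0.29 ± 0.18 in the δ line (adjusted p = 0.443). Between lines Snai1 differed by 0.20 with doxycycline and by -0.08 without, and neither difference passed (adjusted p = 0.502 and 0.820). The sign without doxycycline turned to 0.11 when the untreated δ replicate 1 or the untreated β replicate 2 was left out. The spot of Snai1 lay in a deviant tile on at least 1 array.

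Snai2 encodes Slug, a second repressor of the Snail family, also known from neural crest migration. It read -1.54 and -1.57 in the treated δ line, -2.16 and -2.41 in the untreated δ line, -2.02 and -1.92 in the treated β line and -2.62 and -2.49 in the untreated β line. In each line the treated arrays lay above the untreated ones, and at either treatment the δ arrays lay above the β arrays. The log2 difference with doxycycline was 0.73 ± 0.12 in the δ line (limma adjusted p = 0.112) and 0.58 ± 0.12 in the β line (adjusted p = 0.0886). These had unadjusted p of 0.000713 and 0.00231, the smallest of the 10 genes in each line. Without the untreated δ replicate 2 the difference in the δ line was 0.61. That fit left replicate 1, the array with 78 deviant tiles, alone in its group. With replicate 1 left out instead, the difference was 0.85. The δ line exceeded the β line by 0.42 ± 0.12 with doxycycline (adjusted p = 0.0630) and by 0.27 ± 0.12 without (adjusted p = 0.196). The treated difference passed when either untreated δ array was left out (adjusted p = 0.0440), with probes that were well above background throughout (adjusted p = 0.0461) and with only the 4 treated arrays fitted (adjusted p = 0.0363).

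Zeb1 encodes a zinc finger and homeodomain repressor of Cdh1 and of polarity genes. By its brighter probe, A_55_P2798179, it read 0.25 and 0.18 in the treated δ line and 0.29 and 0.14 in the untreated δ line, against -0.98 and -1.002 in the treated β line and -0.88 and -0.86 in the untreated β line. The 4 δ arrays lay far above the 4 β arrays, and treatment moved neither line by much. Zeb1 was 2.31-fold higher in the δ line with doxycycline (log2 difference 1.21 ± 0.09 SE, limma adjusted p = 0.000819) and 2.11-fold higher without (1.08 ± 0.09, adjusted p = 0.00112). Whichever single array was left out, it passed in both comparisons, at an adjusted p of at most 0.0166 and 0.00922. With doxycycline it differed by 0.0075 in the δ line (adjusted p = 0.979) and by -0.12 in the β line (adjusted p = 0.555). The dimmer probe, A_55_P2588577, read -1.63 and -2.52 in the treated δ line, -1.30 and -1.21 in the untreated δ line, -2.96 and -3.26 in the treated β line and -4.05 and -2.54 in the untreated β line. It too had every δ array above the β arrays of the same treatment, by 1.03 with doxycycline and 2.04 without, but with a wider spread it did not pass over 44321 probes (adjusted p = 0.280 and 0.0740).

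Zeb2 encodes the related repressor SIP1 and had 3 tested probes, none of which passed in any comparison. By the brightest, A_51_P121206, Zeb2 read 0.27 and 0.16 in the treated δ line, 0.06 and 0.11 in the untreated δ line, 0.18 and -0.11 in the treated β line and -0.45 and -0.01 in the untreated β line. The untreated δ arrays lay above the untreated β arrays, while the treated groups overlapped. The difference between lines was 0.18 ± 0.17 with doxycycline (adjusted p = 0.537) and 0.32 ± 0.17 without (adjusted p = 0.297). The differences with doxycycline were 0.13 in the δ line (adjusted p = 0.728) and 0.26 in the β line (adjusted p = 0.489). Its second probe, A_52_P596008, differed by -0.02 and 0.0014 between the lines, with doxycycline and without, and A_52_P526372 by 0.26 and 0.62.

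Twist1, a basic helix-loop-helix factor of mesoderm formation, read 0.60 and 0.60 in the treated δ line, 0.39 and 0.22 in the untreated δ line, 0.0043 and 0.22 in the treated β line and 0.05 and 0.12 in the untreated β line. The treated δ arrays lay above those of every other group. Twist1 was 1.40-fold higher in the δ line with doxycycline (log2 difference 0.48 ± 0.11 SE, limma adjusted p = 0.0389), and its difference without doxycycline was 0.22 ± 0.11 (adjusted p = 0.271). The first of these did not pass when any array other than the untreated δ arrays was left out, with adjusted p up to 0.209, nor after normexp background correction, after median centring or without a filter on dim probes. With doxycycline Twist1 differed by 0.29 ± 0.11 in the δ line (adjusted p = 0.316) and by 0.03 ± 0.11 in the β line (adjusted p = 0.945). Twist2, a close relative with a role in dermal and osteoblast differentiation, read between -0.17 and 0.19 on all 8 arrays, and none of its differences passed, the largest being 0.16 between the untreated lines (adjusted p = 0.392).

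Prrx1 encodes a paired-related homeobox factor of limb and craniofacial mesenchyme. Prrx1 read -1.37 and -1.01 in the treated δ line, -1.08 and -1.39 in the untreated δ line, -0.97 and -0.87 in the treated β line and -1.46 and -1.66 in the untreated β line. The treated β arrays lay above all others and the untreated β arrays below all others, while the δ groups overlapped. The difference with doxycycline was 0.05 ± 0.17 in the δ line (limma adjusted p = 0.903) and 0.64 ± 0.17 in the β line (adjusted p = 0.141). The δ difference minus the β difference was -0.59 ± 0.24 (limma adjusted p = 0.645 over all genes). The second probe of Prrx1, for another transcript, was not well above background on any array and was not tested.

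Vim encodes vimentin, the main intermediate filament of mesenchymal cells. It read 7.73 and 7.71 in the treated δ line, 7.77 and 7.46 in the untreated δ line, 7.80 and 7.83 in the treated β line and 7.68 and 7.74 in the untreated β line. The lowest value was that of the untreated δ replicate 2. The difference with doxycycline was 0.11 in the δ line (adjusted p = 0.680, 95% interval -0.19 to 0.40) and 0.10 in the β line (adjusted p = 0.741, -0.20 to 0.40), and signs of differences this small turned under other settings. Between lines the difference was -0.09 with doxycycline and -0.10 without (adjusted p = 0.660 and 0.646).

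Acta2 encodes α smooth muscle actin, the contractile actin of smooth muscle and myofibroblasts. Its promoter window at chr19:34255324-34255623, on the minus strand of GRCm38.p6, held 3 E-boxes of the general form CANNTG, shown in capitals, while 72.3% of all windows hold at least 1. Among the 7 member genes whose window was used here, Acta2 and Snai1 alone held such an E-box.
Acta2 promoter: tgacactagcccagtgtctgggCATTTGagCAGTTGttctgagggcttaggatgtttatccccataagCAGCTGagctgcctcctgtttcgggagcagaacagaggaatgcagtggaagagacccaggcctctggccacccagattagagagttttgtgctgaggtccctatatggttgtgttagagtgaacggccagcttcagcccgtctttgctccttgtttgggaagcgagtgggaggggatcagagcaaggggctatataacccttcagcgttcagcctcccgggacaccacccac
By its brightest probe, A_52_P420504, Acta2 read 6.21 and 6.21 in the treated δ line and 5.86 and 5.80 in the untreated δ line, against 3.77 and 3.85 in the treated β line and 3.26 and 3.55 in the untreated β line. The δ arrays lay well above the β arrays, and within each line the treated arrays lay above the untreated ones. Acta2 was 5.29-fold higher in the δ line with doxycycline (log2 difference 2.40 ± 0.12 SE, limma adjusted p = 0.000157) and 5.37-fold higher without (2.43 ± 0.12, adjusted p = 0.000130). With this probe kept and each array left out in turn, the difference ran from 2.36 to 2.44 with doxycycline and 2.28 to 2.57 without. The choice of the brightest probe was not redone in these fits. The difference with doxycycline was 0.38 ± 0.12 in the δ line (adjusted p = 0.272) and 0.40 ± 0.12 in the β line (adjusted p = 0.165), which did not pass.

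The 3 probes of Acta2 disagreed on the line difference. A_52_P210078 read 0.29 and 0.40 in the treated δ line and -0.0017 and -0.20 in the untreated δ line, against -2.10 and -1.85 in the treated β line and -2.81 and -2.46 in the untreated β line. Its difference between lines, 2.32 with doxycycline, was close to that of the brightest probe and passed over all probes (limma adjusted p = 0.00106). A_51_P450957 read 5.00 and 4.97 in the treated δ line and 5.05 and 4.78 in the untreated δ line, against 4.80 and 4.80 in the treated β line and 4.51 and 4.60 in the untreated β line. By this probe the difference was 0.18 with doxycycline (adjusted p = 0.418) and 0.37 without (adjusted p = 0.146), although its groups did not overlap either. Its mean over the arrays and that of the brightest probe both came to 4.81, so which of them stands for the gene hangs on a small margin. After quantile normalization it became the brighter one, and the difference of Acta2 was then 0.17 with doxycycline (adjusted p = 0.338) and 0.38 without (adjusted p = 0.0668). All 3 probes carry the same transcript accession in the files, and the part of the transcript that each covers was not used here.

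**Figure D2:**
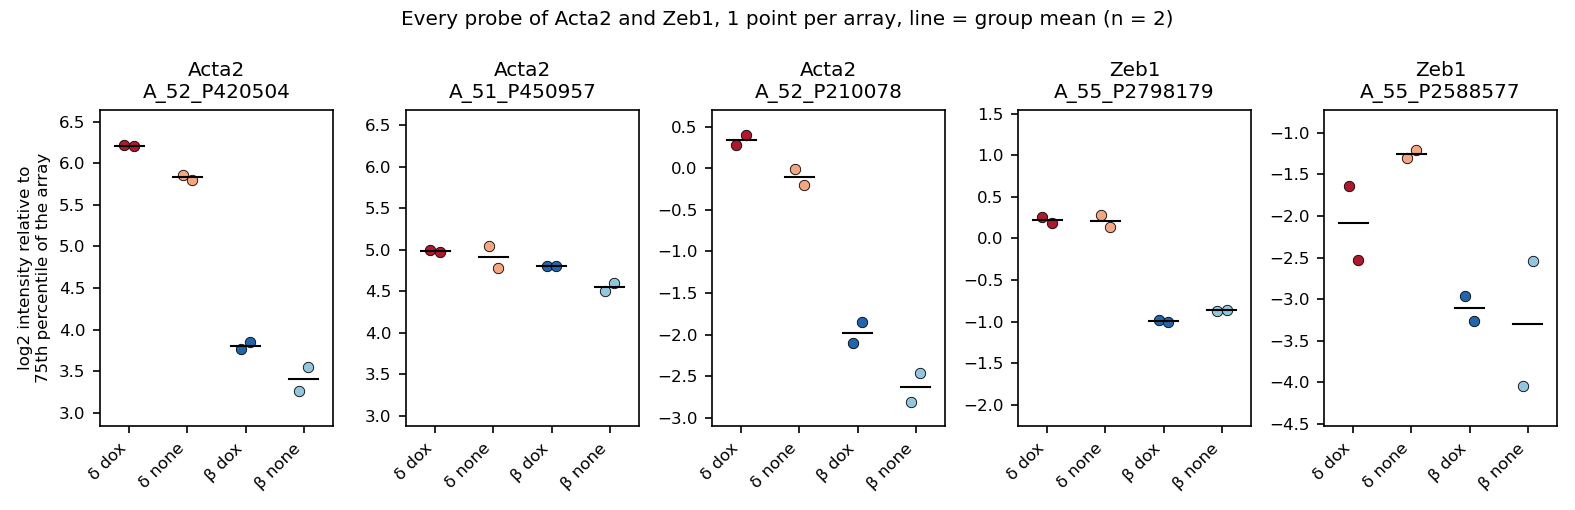
Log2 levels of every tested probe of Acta2 and Zeb1 relative to the array's 75th percentile, with 1 point per array, a line at the group mean and an axis of the same span for the 3 Acta2 probes. The difference between the δ and the β line is wide for A_52_P420504 and A_52_P210078 and narrow for A_51_P450957.

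Tagln encodes transgelin, an actin-binding protein of smooth muscle and fibroblasts. Tagln read 5.00 and 5.08 in the treated δ line, 4.55 and 4.71 in the untreated δ line, 4.17 and 4.52 in the treated β line and 3.84 and 4.02 in the untreated β line. The 4 groups did not overlap, in the order treated δ, untreated δ, treated β and untreated β, with the lower untreated δ array close to the higher treated β array. Tagln was 1.62-fold higher in the δ line with doxycycline (log2 difference 0.69 ± 0.15 SE, limma adjusted p = 0.0291) and without (0.70 ± 0.15, adjusted p = 0.0306). With doxycycline this missed the threshold in fits that left out replicate 1 of the treated β line (difference 0.52) or either treated δ array, with adjusted p up to 0.166. Without doxycycline it did not pass when any array other than the treated β arrays was left out, with adjusted p up to 0.122, nor after median centring (adjusted p = 0.0635) or with only the 4 untreated arrays fitted (adjusted p = 0.104). The difference with doxycycline was 0.41 ± 0.15 in the δ line (adjusted p = 0.304) and 0.42 ± 0.15 in the β line (adjusted p = 0.217).

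Counted together against doxycycline, 9 of the 10 genes had a difference above zero in the δ line, with a median of 0.12, where the median of all genes was 0.0021. In the β line 8 were above zero, with a median of 0.18 beside 0.03 over all genes. None passed in either line, where 0.0736% of all genes passed in the δ line and 0.247% in the β line. At an unadjusted limma p under 0.05 there were 4 in the δ line, where 15.0% of all genes were, and 5 in the β line, where 18.2% were. The pair of treated arrays lay above the untreated pair for 5 genes in the δ line and 5 in the β line, beside 30.7% and 26.2% of all genes, and below them for 1 and 2, beside 27.4% and 20.7%. The effect of doxycycline differed between the lines past the threshold for 0 of the 10, where 0.00526% of all genes passed, and 1, Prrx1, had an unadjusted p under 0.05, where 7.60% of all genes did.

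**Figure D3:**
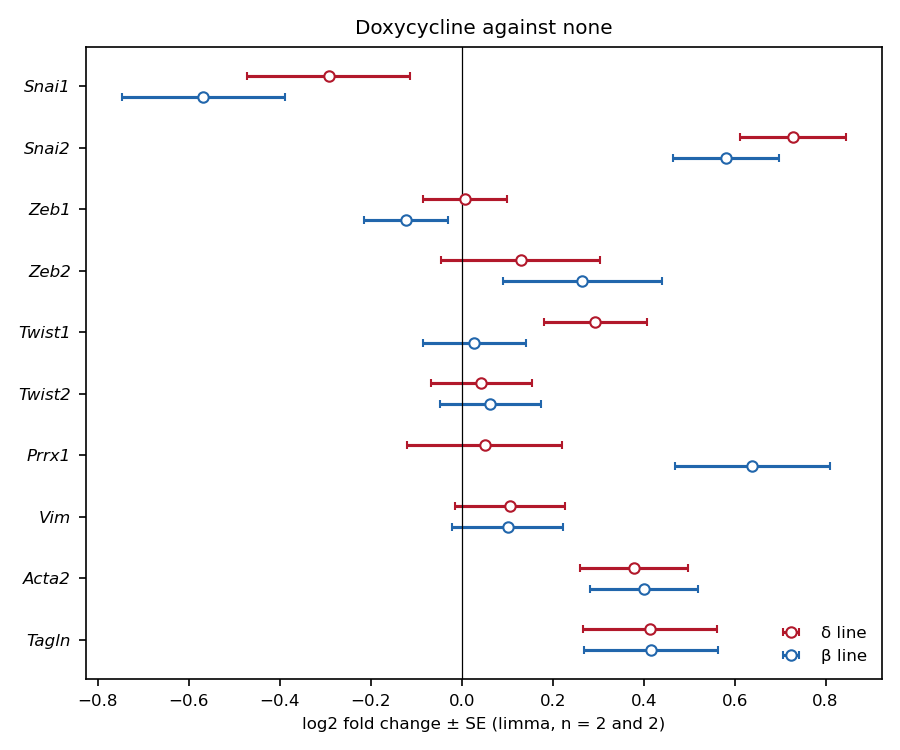
Log2 fold change with doxycycline against none for each of the 10 genes, in the δ line and the β line, with bars of 1 SE from the limma fit. All points are open because none passed the threshold; Snai2 lies at 0.73 and 0.58, and Prrx1 at 0.05 in the δ line and 0.64 in the β line.

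Between lines the members stood further apart. With doxycycline 4 of the 10 were higher and 0 lower in the δ line past the threshold, where 15.3% of all genes passed in either direction with 9.83% higher and 5.49% lower. Without doxycycline 3 were higher and 0 lower, where 13.2% of all genes passed with 7.84% higher and 5.33% lower. The median difference was 0.31 with doxycycline, beside -0.0062 over all genes, and 0.29 without, beside 0.02. Both δ arrays lay above both β arrays for 7 of the 10 genes at either treatment, beside 35.6% of all genes with doxycycline and 28.7% without. Both lay below for 2 with doxycycline, Vim and Prrx1, beside 32.8% of all genes, and for 0 without, beside 24.3%. At the level of probes, 3 of the 15 were higher in the δ line at either treatment, A_52_P420504 and A_52_P210078 of Acta2 and the brighter probe of Zeb1, where 7.38% and 7.18% of all probes passed. The treated and the untreated comparison use different arrays, but the lines are the same, so their likeness says nothing beyond these lines. In bulk RNA, fewer cells of a type and less RNA per cell cannot be told apart.

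**Figure D4:**
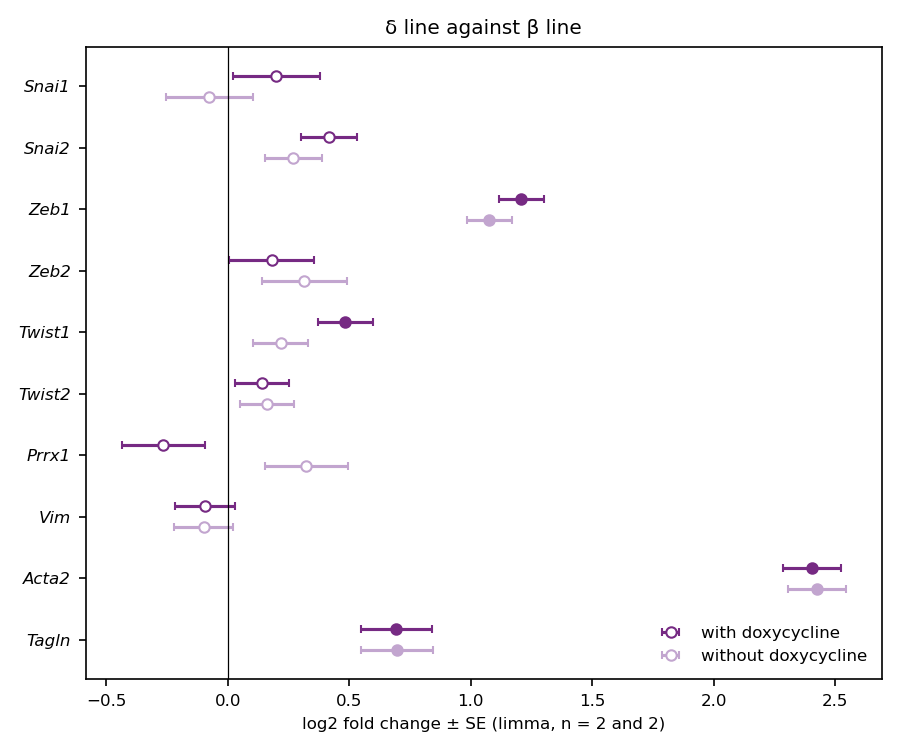
Log2 fold change of the δ line against the β line for each of the 10 genes by its brightest probe, with doxycycline and without, with bars of 1 SE from the limma fit and filled points where the adjusted p was under the threshold. Acta2 at 2.40 and 2.43 and Zeb1 at 1.21 and 1.08 lie farthest from zero, and Vim lies near it.

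Other transcription factors that can drive the transition went both ways between the lines. Of 18 measured, 4 were higher and 3 lower in the δ line at either treatment. That is 38.9% of the list, beside 15.3% of all genes with doxycycline and 13.2% without. Over all genes 9.83% were higher and 5.49% lower with doxycycline, and 7.84% and 5.33% without. Sox9, a factor of cartilage and progenitor cells, read -0.71 and -0.80 in the treated δ line against -2.54 and -2.25 in the treated β line, a difference of 1.64 ± 0.14 (limma adjusted p = 0.00108), and 1.67 without doxycycline. Hmga2, a chromatin protein that acts on Snai1 and Twist1, was higher by 0.97 and 1.19, and the E-protein gene Tcf4 and the forkhead gene Foxc2 were higher by 0.64 and 0.60 with doxycycline. Gsc, encoding the homeobox factor goosecoid, was well above background only on β arrays and entered the test through them. It is counted among the 3 lower genes, but its difference is only a bound. The bound was at least 4.34-fold lower in the δ line with doxycycline and at least 2.95-fold lower without. The AP-1 gene Fosl1 was lower by a log2 difference of -1.21 and -1.38, and the ETS gene Etv4 by -0.60 and -0.62. With any of the treated arrays left out, the count of higher genes with doxycycline was 1 in place of 4. Without doxycycline it was 2 without the untreated β replicate 1 or the untreated δ replicate 1.

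Several keratin and junction genes of epithelial cells were lower in the δ line. Cdh1, encoding E-cadherin, was well above background on only 3 of 8 arrays and Epcam on 1, so neither was tested. Of 26 measured epithelial junction and keratin genes, 7 were lower and 0 higher in the δ line with doxycycline, and 7 were lower and 1 higher without. In all, 26.9% and 30.8% of them passed, beside 15.3% and 13.2% of all genes. Over all genes 5.49% were lower with doxycycline and 5.33% without. Krt8, a keratin of simple epithelia, read 1.84 and 1.81 in the treated δ line and 2.17 and 2.08 in the untreated δ line, against 3.97 and 3.90 in the treated β line and 3.89 and 4.13 in the untreated β line. Its difference was -2.11 ± 0.11 with doxycycline (limma adjusted p = 0.000193) and -1.88 ± 0.11 without (adjusted p = 0.000261). Krt19 differed by -2.38 and -2.61, and Spint1, encoding an inhibitor of epithelial serine proteases, by -1.58 and -1.51. The tight junction gene Ocln differed by -1.92 with doxycycline and, not well above background on either untreated δ array, was at least 3.20-fold lower without. Krt18, the partner of Krt8, was lower without doxycycline (-0.75, adjusted p = 0.00358) and had a value of -0.30 with it (adjusted p = 0.0677). Ctnnd1, encoding p120 catenin, was the gene that was higher without doxycycline (0.51, adjusted p = 0.0415). Of the 26 genes, 18 had a value below zero with doxycycline and 13 without, and the median was -0.33 and -0.02. Of 13 measured epithelial transcription factors and splicing regulators, 1 passed, the RNA-binding protein gene Rbm47, lower by -1.02 and -0.65. That is 7.69% of them at either treatment, beside 15.3% and 13.2% of all genes. Without an untreated δ array, 3 of these regulators were lower with doxycycline and 3 or 4 without. The count of lower junction genes stayed within 1.5 times of 7 with each array left out, while without doxycycline the count of higher ones was 0 in 6 of the 8 such fits and 3 without the untreated δ replicate 2.

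Further mesenchymal genes did not share the direction of Acta2 and Zeb1 as a group. Of 32 matrix and adhesion genes, 3 were higher and 8 lower in the δ line with doxycycline, and 4 were higher and 6 lower without. In all, 34.4% and 31.2% of them passed, beside 15.3% and 13.2% of all genes. Over all genes 9.83% were higher and 5.49% lower with doxycycline, and 7.84% and 5.33% without. Higher at both treatments were the matrix glycoprotein genes Tnc (0.74 and 0.94) and Thbs1 (0.58 and 0.54) and the collagen gene Col1a2 (0.44 and 0.61). Lower at both were the fibrillin gene Fbn1 (-0.78 and -0.90), Timp1, an inhibitor of matrix proteases (-0.91 and -0.69), the ectonucleotidase gene Nt5e (-0.80 and -0.83) and the receptor tyrosine kinase gene Axl (-0.51 and -0.64). N-cadherin, encoded by Cdh2, differed by 0.07 with doxycycline and 0.45 without (limma adjusted p = 0.829 and 0.170), and fibronectin, encoded by Fn1, by -0.10 and 0.16 (adjusted p = 0.621 and 0.409). The counts leaned on single arrays: without the treated δ replicate 1 or replicate 2, 0 of these genes were lower and 0 higher with doxycycline, and without the treated β replicate 1 or 2, 2 or 3 were lower and 0 higher. Without doxycycline, 0 or 1 were higher in fits lacking a treated δ array, the untreated δ replicate 1 or the untreated β replicate 1.

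Of 23 genes of the actin cytoskeleton and smooth muscle, 3 were higher and 2 lower in the δ line with doxycycline, and 3 were higher and 3 lower without. These were 21.7% and 26.1% of the list, beside 15.3% and 13.2% of all genes. Over all genes 9.83% were higher and 5.49% lower with doxycycline, and 7.84% and 5.33% without. Cnn1, encoding the smooth muscle protein calponin, read 3.42 and 3.58 in the treated δ line and 3.11 and 2.80 in the untreated δ line, against 1.65 and 1.66 in the treated β line and 0.50 and 1.02 in the untreated β line. It was higher in the δ line by 1.84 ± 0.20 with doxycycline (limma adjusted p = 0.00275) and by 2.19 ± 0.20 without (adjusted p = 0.00129). The muscle filament gene Des was higher by 0.76 and 0.67 and Mrtfb, a coactivator of serum response factor, by 0.58 and 0.41. Myl9, a myosin light chain of smooth muscle, was lower by -1.31 and -1.18 (adjusted p = 0.00401 and 0.00522), and so was the growth factor gene Ccn2, by -0.80 and -0.67. Tagln2, the widely expressed relative of Tagln, differed by -0.26 and -0.22 (adjusted p = 0.115 and 0.197). Without a treated δ array or the treated β replicate 1, 1 of these genes was higher with doxycycline in place of 3. Without doxycycline the same fall to 1 was seen without a treated δ array or the untreated β replicate 1.

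Among 28 genes of TGF-β and other signalling upstream of Snail, 7 were higher and 4 lower in the δ line with doxycycline, and 6 were higher and 3 lower without. In all, 39.3% and 32.1% of them passed, beside 15.3% and 13.2% of all genes. Pdgfrb, a growth factor receptor of mesenchymal cells, had the largest difference of the list, 2.26 ± 0.12 with doxycycline (limma adjusted p = 0.000203) and 2.67 ± 0.12 without. The Notch target Hey1 (0.94 and 0.96), the ligand gene Bmp4 (0.82 and 0.75) and Id3, a BMP target (0.67 and 0.71), were higher too, while Pdgfb (-0.95 and -0.97) and the activin subunit gene Inhba (-0.76 and -0.83) were lower. Tgfbr1, the type I TGF-β receptor, was higher with doxycycline by 0.71 (adjusted p = 0.00853). Leaving out a treated array lowered the count of higher genes with doxycycline to between 1 and 4 and that of lower genes to 1 or 2. Without doxycycline 3 were higher in fits lacking a treated δ array or replicate 1 of either untreated group, and 1 was lower without the untreated β replicate 2. Of 16 corepressors and regulators of Snail and Zeb proteins, 1 passed, Btrc, encoding a ubiquitin ligase subunit that targets Snail, higher by 0.73 with doxycycline (adjusted p = 0.0212), a call lost without any 1 of the 4 treated arrays.

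Of 13 intermediate filament genes other than Vim, 3 were higher and 3 lower in the δ line with doxycycline, and 2 were higher and 3 lower without. In all, 46.2% and 38.5% of them passed, beside 15.3% and 13.2% of all genes. Krt14, the keratin of basal epithelial cells, read 1.27 and 1.09 in the treated δ line against 4.97 and 4.74 in the treated β line, a difference of -3.67 ± 0.15 (limma adjusted p = 7.57e-05), and -3.75 without doxycycline. Prph, encoding peripherin of neurons (2.88 and 2.91), and Krt15, another basal keratin (1.67 and 2.02), were higher, and Nes, encoding nestin (-0.84 and -0.72), and the lamin gene Lmna (-0.50 and -0.51) were lower. With a treated array left out, 1 of them was lower with doxycycline in place of 3, and the same held without doxycycline for a treated δ array or the untreated β replicate 2.

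**Figure D5:**
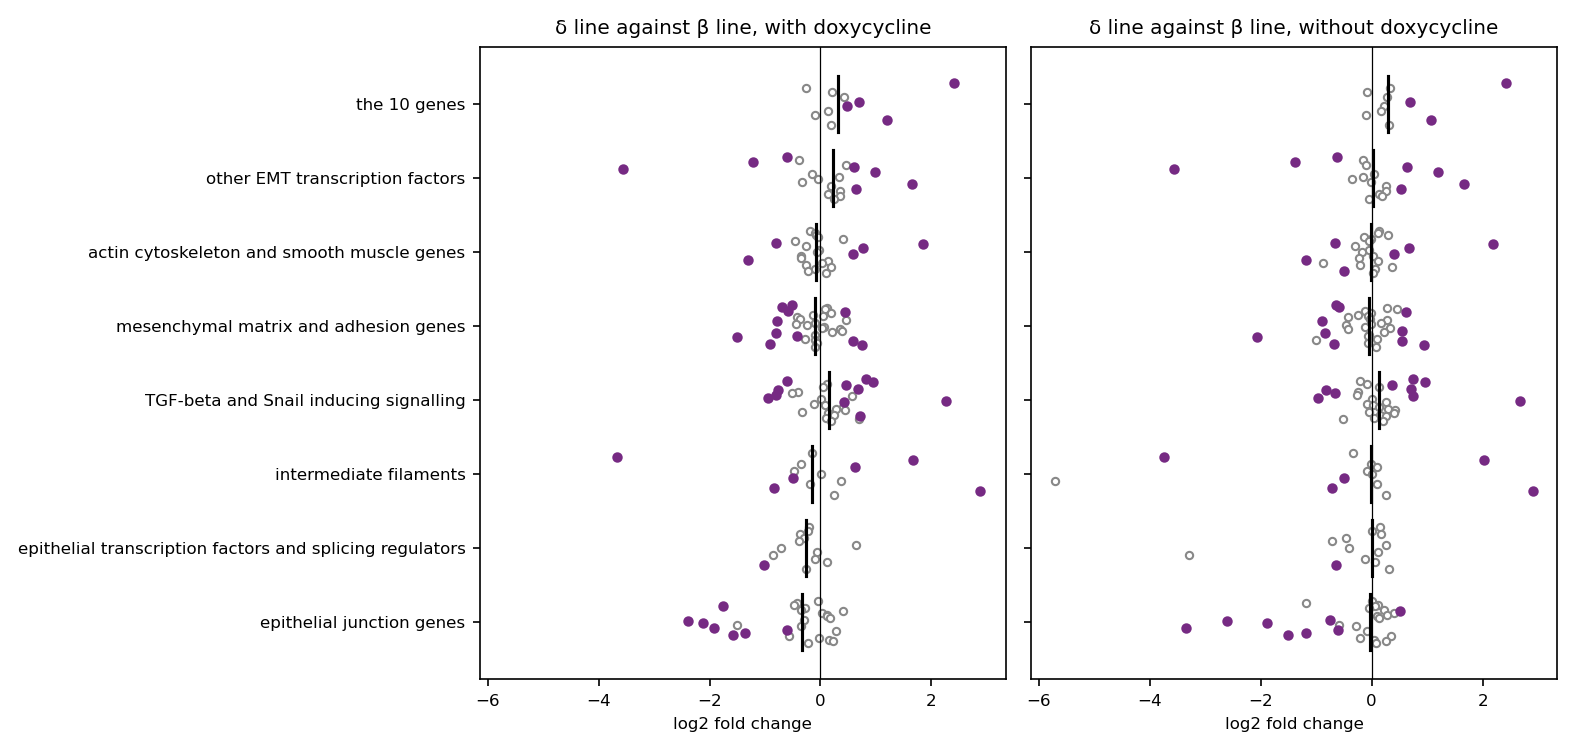
Log2 fold change of the δ line against the β line for every measured gene of 8 lists, with doxycycline on the left and without on the right, filled where the adjusted p was under the threshold, with a bar at the list's median. Genes not well above background in a group are drawn at their fitted value. The 10 genes lie at a median of 0.31 and 0.29, and the epithelial junction genes at -0.33 and -0.02.

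The counts of these lists also moved with the processing. When only the 4 untreated arrays were fitted, the lists without doxycycline held 1 higher gene among the other transcription factors, 0 higher and 4 lower among the junction genes, and 0 lower among the epithelial regulators. In that fit 0 matrix genes were higher and 0 lower, 1 actin gene was higher and 0 lower, 1 signalling gene was higher and 0 lower, and 1 filament gene was lower. When only the 4 treated arrays were fitted, 11 junction genes and 4 actin genes were lower with doxycycline, 3 epithelial regulators were lower and 1 higher, 1 junction gene was higher, and 2 corepressor genes were higher. After median centring 1 matrix gene was higher and 4 lower with doxycycline, and without it 2 matrix genes and 3 signalling genes were higher, 1 filament gene was lower and 0 junction genes were higher. After normexp 1 matrix gene was higher with doxycycline, and 0 epithelial regulators were lower without, so the call of Rbm47 was lost there. With dim probes kept in, 1 matrix gene was higher with doxycycline and 2 without, and 0 junction genes were higher without. The count of corepressor genes that were higher with doxycycline was 3 after quantile normalization or with an intensity trend. As first reported, 6.25% of the corepressor list passed with doxycycline and 0% without, beside 15.3% and 13.2% of all genes.

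With doxycycline within a line, the same lists held 1 gene past the threshold. Over all genes 0.0736% passed in the δ line and 0.247% in the β line. Krt20, a keratin of differentiated epithelium, rose in the δ line, with -2.69 and -2.82 on the treated arrays against -4.31 and -4.15 on the untreated arrays (1.48 ± 0.13 SE, limma adjusted p = 0.0397), and had a value of 0.96 in the β line (adjusted p = 0.0565). The genes with the smallest p in the other lists did not pass. Cnn1 differed by 0.54 in the δ line (adjusted p = 0.307) and by 0.90 in the β line (adjusted p = 0.0986), and Etv4 by -0.59 (adjusted p = 0.137) and -0.62 (adjusted p = 0.0712). Among junction genes Spint2 had a value of 0.97 in the β line (adjusted p = 0.0704). Krt8 differed by -0.30 in the δ line and by -0.07 in the β line (adjusted p = 0.309 and 0.803), and Cdh2 by 0.19 and 0.57 (adjusted p = 0.605 and 0.183).

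By the brightest probe of each gene, Acta2 had the widest range of group means of the 10 genes, 2.80, followed by Zeb1 at 1.21, Tagln at 1.11 and Snai2 at 0.999, and Vim had the narrowest. For Acta2 this holds for that probe: by A_51_P450957 its group means ran only between 4.98 in the treated δ line and 4.55 in the untreated β line. Profiles over the 8 arrays were also compared, each centred on its own mean. The 5 genes nearest to Acta2 by A_52_P420504 were Bmp7, Acta1, Pmaip1, Sash1 and Arxes1. Their root mean square distances lay between 0.129 and 0.143 on the log2 scale. Bmp7, for example, read 1.30 and 1.30 in the treated δ line and 1.20 and 1.08 in the untreated δ line, against -1.14 and -1.25 in the treated β line and -1.48 and -1.36 in the untreated β line. The 5 genes nearest to A_51_P450957 were others, Rbm15b, Gpam, Dnajb14, Tesmin and Pald1, at distances between 0.0459 and 0.0540. These arrays share their slide and their lines.

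The label of a cortical thymic epithelial line was checked against markers. Of 14 cortical markers, 8 were well above background on all arrays, Foxn1, Krt8 and Krt18 among them, and 3 on none, including Psmb11, the thymoproteasome subunit that defines cortical cells in the tissue. The log2 of their summed level lay between 6.32 and 6.35 in the treated δ line, 6.09 and 6.12 in the untreated δ line, 6.45 and 6.59 in the treated β line and 6.40 and 6.61 in the untreated β line. Of the 10 measured, 1 was higher and 2 lower in the δ line with doxycycline, and 1 higher and 3 lower without. In all, 30% and 40% of them passed, beside 15.3% and 13.2% of all genes. Of 10 medullary markers, 7 were well above background throughout, while Fezf2 and Cldn3 were so on no array. Their sum lay between 2.38 and 2.52 in the treated δ line and 2.52 and 2.66 in the untreated δ line, against 4.95 and 5.16 in the treated β line and 5.08 and 5.30 in the untreated β line. That sum takes in Krt14, which read 1.27 and 1.09 in the treated δ line against 4.97 and 4.74 in the treated β line, and so mostly follows this keratin. Of the 7 medullary markers measured, 2 were lower with doxycycline, Krt14 and Tnfrsf11a, and 1 without, with a median of -0.48 and 0.01. These were 28.6% and 14.3% of them, beside 15.3% and 13.2% of all genes. Of 14 fibroblast markers 10 were well above background on all arrays and Dpt and Dpp4 on none, with a sum between 9.02 and 9.33 over all groups. That sum takes in the bright collagen genes Col1a1 and Col1a2, at 7.81 and 7.34 on the treated β replicate 1. Of the 11 measured, 2 were higher and 3 lower in the δ line with doxycycline, and 2 higher and 2 lower without. These were 45.5% and 36.4% of them. The cortical and fibroblast counts moved with the processing and with arrays left out. Of 10 pericyte and smooth muscle markers 8 were well above background on all arrays and Rgs5 on none. Their sum lay between 6.58 and 6.60 in the treated δ line and 6.33 and 6.60 in the untreated δ line, against 6.37 and 6.47 in the treated β line and 6.29 and 6.42 in the untreated β line. Of the 9 measured, 3 were higher and 0 lower in the δ line at either treatment, 33.3% of them. Endothelial markers, of which 6 of 10 were well above background on all arrays and Tie1 and Emcn on none, summed to between 2.99 and 3.06 in the treated δ line and 2.62 and 2.68 in the untreated δ line, against 2.07 and 2.14 in the treated β line and 1.74 and 2.05 in the untreated β line. Of 7 measured, Kdr and Flt1 were higher in the δ line with doxycycline and Kdr without. These were 28.6% and 14.3% of them, beside 15.3% and 13.2% of all genes. Kdr rose with doxycycline in the β line (0.92, limma adjusted p = 0.0403), where 0.247% of all genes passed. Of 13 thymocyte markers, 8 were well above background on all arrays and Ptprc, Cd3g and Rag1 on none, with sums between 4.19 and 5.10. Of the 10 measured, 1 was higher and 0 lower in the δ line at either treatment, 10% of them. The part of other cell types in the line differences was not tested.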

How the data were processed

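RNA of the 4 groups was labelled with 1 dye and hybridised to Agilent mouse arrays, 8 in all. Per the file headers, the authors' scans were read by Agilent software, Feature Extraction 11.5.1.1. Its processed signal, the deposited intensity used here, is on a linear scale after background subtraction and spatial detrending, and arrays had not been normalized to each other. How the study itself tested its data was not given in the sources used here. Groups were taken from the sample titles, and replicate numbers only name arrays. Replicates correlated at 0.965 (untreated δ) to 0.997 over genes, and no pair was identical.

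From these files, spots of the same probe were averaged as log2 processed intensity, leaving out control and outlier spots, and values were centred on the 75th percentile of their array. On some array 98 of the 56605 probes had only flagged spots. A RefSeq table of GRCm38.p6 named 32931 probes by transcript accession. The headers name another build, and no probe coordinates are given. Named probes were kept where some group had both arrays well above background (27215), and the brightest probe stood for its gene (19023 genes). No spot was saturated. A gene dim on every array of a group has only a bound, the brighter mean against the higher of the dimmest well-measured signal and its own.

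A model with 4 group means was fitted to the 8 arrays by lmFit and eBayes of limma 3.58.1 in R 4.3.3, leaving 4 residual degrees of freedom. Benjamini-Hochberg adjustment ran over all genes, or over 44321 probes, with a threshold of 0.05. The fit was tested on simulated data. The members, gene lists and tests were chosen with earlier results of these data known. Named genes were the 10 members, fixed partners such as Cdh2 and Fn1, and from each list up to 4 genes per direction with the smallest p among those past the threshold. Of the genes this rule takes, some are given here only in counts. Promoters are RefSeq windows of GRCm38.p6, and those used here cover 7 of the 10 genes. The windows of a whole chromosome were left out when the genes were looked up. A listed gene without a window here may therefore still have one. Alternatives changed the background correction, scaling, dim-probe filter, probe choice, variance trend, arrays and block. Normexp (offset 50) used median signals because the files used here hold no mean signal column. The use of the next brightest probe was added after seeing the data.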

Additional observations from a re-analysis of the deposited data

How the results depend on the processing

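Doxycycline: of the 10 genes, 0 passed in either line or for the difference between lines under any setting other than leaving out an array. Leaving out an array leaves 1 array in its group. The difference of Snai2 in the δ line then ran from 0.61 to 0.85, the lowest with the untreated δ replicate 1 alone in its group. Over all genes the counts past the threshold, given for the δ line and then the β line, were 14 and 47 as reported, 5 and 13 after normexp, 7 and 14 after median centring, 43 and 331 where every array had to be well above background, 1 and 8 with dim probes kept in, 25 and 237 with an intensity trend, 59 and 274 without the probes in deviant tiles, and 1 and 0 when only the 4 arrays of that line entered the fit. For the difference between lines the count was 1 as reported, 0 after normexp, where every array had to be well above background, and with an intensity trend, and 2 without the probes in deviant tiles. In that last setting only 9 of the 10 genes were measured, because the probe of Snai1 was left out. With arrays left out the counts ran from 1 to 1620 in the δ line, 0 to 224 in the β line and 1 to 1055 for the difference. The share of calls that were higher with doxycycline was 28.6% in the δ line and 46.8% in the β line, against 11.1% and 28.3% after quantile normalization, 0% and 23.1% after normexp, and 28.6% in the β line after median centring.

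Replicate block: arrays of the same slide column in a line were paired as a block, although the numbers pair nothing in the labels and the deviations of paired arrays correlated at 0.076 in the δ line and 0.019 in the β line. With it 1 gene passed in the δ line, 0 in the β line and 0 for the difference. No paired analysis was possible between lines because they share no column.

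Line difference: without doxycycline 709 of all genes passed in a fit of the 4 arrays, and with arrays left out the counts ran from 697 to 3256 with doxycycline and 1459 to 3747 without. Of the 10 genes 2 to 5 passed with doxycycline and 2 to 3 without when arrays were left out, and 2 and 1 with the next brightest probe of each, a choice made after seeing the data. With doxycycline 2 passed in place of 4 when replicate 1 of the treated β line was left out, and likewise for each treated δ array.

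Signs that turned belonged to differences that did not pass. After normexp these were Zeb1 with doxycycline in the δ line (-0.10) and the difference of effects of Twist2 (0.053) and Acta2 (0.13). After quantile normalization they were Vim with doxycycline in the β line (-0.14) and between the treated lines (0.079). After median centring they were Twist1 in the β line (-0.012) and the difference of effects of Twist2 (0.035), Acta2 (0.034) and Tagln (0.052). As a mean over probes Zeb1 had -0.41 in the δ line, 0.032 in the β line and -0.44 for the difference of effects, and by its next brightest probe -0.83, 0.19 and -1.01, where Zeb2 had -0.016 between the treated lines. With arrays left out, values with doxycycline ran from -0.082 to 0.14 for Twist1 and -0.060 to 0.18 for Twist2 in the β line, and in the δ line from -0.067 to 0.082 for Zeb1, -0.0036 to 0.089 for Twist2, -0.051 to 0.26 for Vim and -0.13 to 0.23 for Prrx1. The differences of effects ran from -0.36 to 0.088 for Zeb2, -0.14 to 0.10 for Twist2, -0.15 to 0.16 for Vim, -0.17 to 0.12 for Acta2 and -0.18 to 0.17 for Tagln. Between the untreated lines Snai1 ran from -0.26 to 0.11 and Vim from -0.26 to 0.059. The cause was not tested in any of these.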
